A study of Homo sapiens with 4 samples.

Results

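IGF2BP1 is described here as a target of MARF1 in iCLIP data, through every interval of the authors' list of shared peaks that carries its gene symbol and every peak of either replicate that overlaps its gene body. These rules gave 9 of the 282 shared intervals, 7 of the 719 peaks of replicate 1 and 7 of the 534 peaks of replicate 2. IGF2BP1 is an RNA-binding protein of embryonic tissues that returns in many tumours. It is known for binding the zipcode of ACTB mRNA and for protecting MYC mRNA from decay, and its own mRNA, with a long 3'UTR, is a classic target of the let-7 microRNAs. MARF1 is a protein with a NYN endonuclease domain, RNA recognition motifs and a row of LOTUS domains, and it is known as a regulator of mRNA levels in oocytes.

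The libraries came from HEK293 T-REx cells, a human embryonic kidney line. In 2 libraries the cells expressed FLAG-tagged MARF1 without its NYN domain (F-MARF1ΔNYN), from a promoter induced by doxycycline at 100 ng/mL for 12 hours, and the other 2 libraries were controls from HEK293 cells without a FLAG-tagged protein. RNA was crosslinked to protein with UV light of 254 nm at 400 mJ per square centimetre and recovered with a FLAG antibody. The labels do not say whether control cells also received doxycycline. The truncated protein was expressed from a transgene, so the peaks describe binding by a form of MARF1 that lacks its nuclease domain. The peak lists hold no expression values, so neither the cell type nor the level of IGF2BP1 mRNA could be checked in them.

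IGF2BP1 lies on the plus strand of chromosome 17 (chr17:47074747-47133507, hg19, ENSG00000159217). Its mRNA has 15 exons in the transcript ENST00000290341, and the last exon holds the whole 3'UTR, chr17:47126807-47133507. This 3'UTR is 6701 bases long and makes up 76.2% of the mRNA but 11.4% of the gene. All 14 peaks lay in it, and 0 lay in an intron, a coding exon or the 5'UTR. The authors' Homer annotation placed all 9 shared intervals in the 3'UTR, a label that 66.3% of all shared intervals had. Homer labels and gene models differ for some genes, in both directions. For the gene LNPEP, all 13 intervals were labelled intergenic but lay in its longest annotated 3'UTR. The share of all intervals in a 3'UTR by gene models was not counted. A shared interval is the stretch of sequence covered by a peak of each replicate. Peaks carry no strand, and 0 genes are annotated on the opposite strand of this 3'UTR. On the same strand, 1 other gene is annotated within it, a microRNA gene 96 to 180 bases after the stop codon, and 0 peaks overlap it. A search of GENCODE transcripts found a near-identical copy in another gene for 0 of the 9 intervals.

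Peaks are named below by replicate and by their order from the stop codon, so that R1-6 is the sixth peak of replicate 1, and intervals are named I1 to I9 in the same way. The following sequences show the 30 bases around the replicate 1 summits of the 5 intervals with the highest fold enrichment in their lower replicate. These intervals have 4 distinct summits, because R1-6 underlies both I7 and I8. Fold enrichment is the peak caller's linear ratio of reads at the summit, scaled for depth, over the local background, with 1 added to each. The fifth sequence was added after the values were seen, because the summits of both replicates fall in it. Capitals mark the base at a summit, all are from the plus strand of hg19, and a summit is the point where the most reads, each extended to 100 bp, overlap, and not the crosslinked base.
R1-6 (chr17:47131989-47132018): gaccagatggtgagGaaaggaatggcctct
R1-5 (chr17:47131231-47131260): cattcaaaccactcGactgtttgcctgttt
R1-4 (chr17:47130652-47130681): agacagaggctgagAgaggctgttcctgaa
R1-7 (chr17:47132790-47132819): cccctgtcccccctCccctgccaataagct
R1-2 (chr17:47129297-47129326): cacctctGtctcccTgtcttctttagatcg
Their GC content ranged from 43.3% at R1-5 to 66.7% at R1-7. The share of purines, A and G, was 66.7% at both R1-6 and R1-4, but 23.3% at both R1-7 and R1-2, so the sequences at the summits did not share a base composition.

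In replicate 1, the strongest peak was R1-6, 5110 to 5706 bases after the stop codon, with a fold enrichment of 12.7 (q = 7.40e-20) and 23 reads at the summit. R1-5 followed with a fold enrichment of 10.7 and 20 reads, and R1-4 with 10.1 and 22 reads. These neighbours rank 19, 35 and 48 by fold enrichment among the 719 peaks of replicate 1. Lower values were found at R1-7 (7.26, 15 reads), R1-1 (6.99, 13 reads), R1-3 (6.33, 16 reads) and R1-2 (5.28, 17 reads). The weakest of them, R1-2, also had the highest local background, which allows at most 3 control reads in 100 bp, and its q-value was still 9.97e-06.

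In replicate 2, the highest fold enrichment was 15.2 at R2-5 (q = 9.14e-27, 31 reads), which ranks 7 of 534 and is 1530 bases long. R2-4 reached 14.2 with 25 reads. R2-3 had the most reads, 33, but a fold enrichment of 10.8, over a background that allows 2 control reads. R2-2 stood at 10.5 (21 reads), R2-7 at 8.70 (20 reads), R2-1 at 8.11 (16 reads) and R2-6 at 7.05 (16 reads). A fold enrichment is a single value per replicate, without an error of its own.

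**Figure D1:**
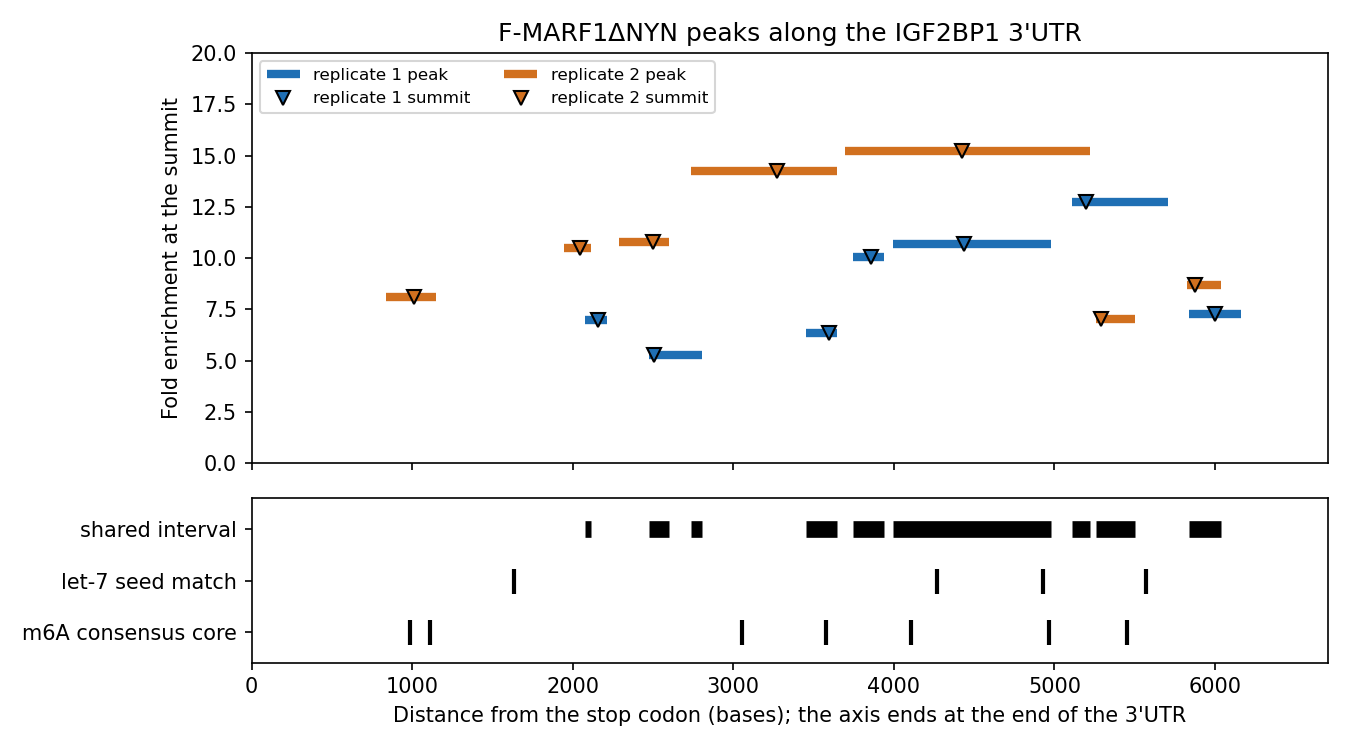
Peaks of F-MARF1ΔNYN along the IGF2BP1 3'UTR, by distance from the stop codon in bases, with the fold enrichment at the summit on the vertical axis, bars for the extent of each peak and triangles for summits. The lower panel shows the 9 shared intervals, the 4 let-7 seed matches and the 7 matches to the m6A core. The first 837 bases carry no peak, and the replicate 2 peak that follows them has no partner in replicate 1.

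The order of the peaks was shared in part. R1-4, R1-5 and R1-6, the 3 strongest peaks of replicate 1, all overlap R2-5, the strongest of replicate 2, and form I5, I6 and I7 with it. R1-6 also overlaps R2-6, the weakest of replicate 2, and forms I8 with it. Between 2290 and 3644 bases after the stop codon, replicate 2 had fold enrichments of 10.8 and 14.2 where replicate 1 had 5.28 and 6.33. Replicate 2 had the higher fold enrichment at 8 of 9 intervals, against 66.7% of all 282 shared intervals. The median over the 9 intervals was 7.26 in replicate 1 and 14.2 in replicate 2, where all shared intervals had 7.33 and 8.41. Both the IGF2BP1 medians and the 8 of 9 count R1-2, R1-6, R2-4 and R2-5 more than once, so the 9 comparisons are not independent. Over the 6 distinct replicate 2 peaks behind the intervals, the median was 10.6. Replicate 1 thus placed IGF2BP1 near the middle of all shared intervals, and replicate 2 placed it above the middle.

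Reads at the summit could be solved as a whole number from the fold enrichment and the p-value for 719 of 719 and 534 of 534 peaks. IGF2BP1 peaks had a median of 17 reads in replicate 1, where all peaks had 8, and a median of 21 in replicate 2, where all peaks had 11. Together its summits held 1.82% of all summit reads in replicate 1 and 2.31% in replicate 2. The local background was also above that of most peaks, with a median of 1.21 reads against 0.313 in replicate 1, and 1 against 0.400 in replicate 2. As 13 of the 14 IGF2BP1 peaks are shared, the shared peaks of all genes are the closer comparison, and they had medians of 12 and 14 reads over backgrounds of 0.803 and 0.700. Relative to the control, the depth of the F-MARF1ΔNYN library was 0.803 in replicate 1 and 1.05 in replicate 2. Duplicates were removed by position, so these reads count distinct alignments, and library totals are unknown.

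**Figure D2:**
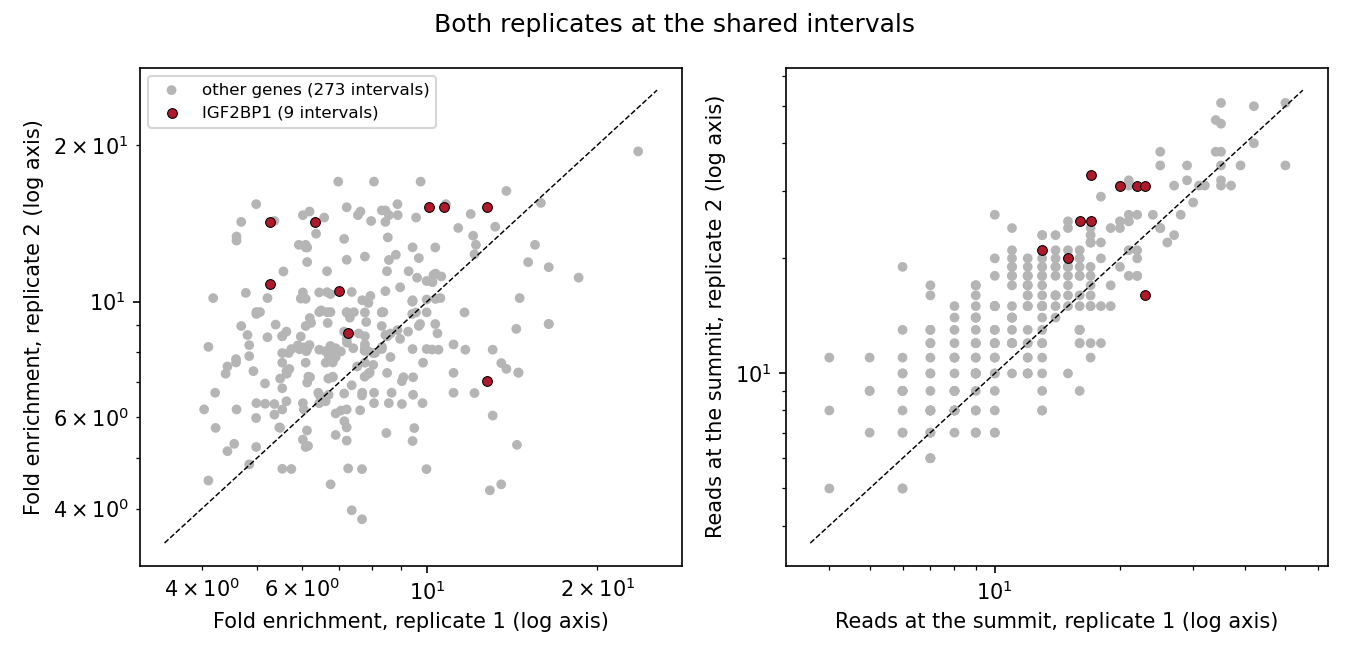
Fold enrichment (left) and reads at the summit (right) in replicate 1 and replicate 2 for the 282 shared intervals, with log axes, a point for each interval and a dashed line where both replicates are equal. The 9 IGF2BP1 intervals lie above the line in all but 1 case, and the exception is I8.

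By count the replicates were alike. All 7 peaks of replicate 1 overlapped a peak of replicate 2, against 35.9% of all replicate 1 peaks, and 6 of 7 peaks of replicate 2 overlapped a peak of replicate 1, against 46.8% of all replicate 2 peaks. The shares over all peaks are not an even baseline, because IGF2BP1 was chosen with its shared intervals known. An overlap of 1 bp was enough, and the peaks covered 41.2% of this 3'UTR in replicate 1 and 55.1% in replicate 2. Every interval had a q-value under 0.001 in both replicates, as did 89% of all shared intervals. The peak found in replicate 2 alone, R2-1, lies 838 to 1149 bases after the stop codon (chr17:47127644-47127955). Its q-value was 2.95e-09, lower than that of R2-6, which did have a partner.

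Base by base the overlap was smaller. Replicate 1 peaks covered 2764 bases of the 3'UTR (41.2%) and replicate 2 peaks 3692 bases (55.1%). Both covered 2161 bases, which is 78.2% of the replicate 1 bases and 58.5% of the replicate 2 bases. Merged across replicates, the 14 peaks form 5 regions, of which the longest runs from 3693 to 5706 bases after the stop codon and holds 5 peaks and 4 intervals. Gaps of 74, 48 and 117 bases separate the last 4 regions, so that most of the distal 3'UTR is covered in at least 1 replicate. The remaining 2406 bases without a peak (35.9%) include the first 837 bases of the 3'UTR, the 794 bases after R2-1 and the last 536 bases.

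The intervals differ widely in length, from 38 bases in I1 to 987 in I6, which alone holds 45.7% of the shared bases and ranks 6 in length among all 282 intervals. The median was 191 bases, against 120.5 over all shared intervals. Their middles lay a median of 3842 bases from the stop codon, between 31.3% and 88.6% of the way along the 3'UTR.

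The summits behind an interval were a median of 120 bases apart in IGF2BP1 and 49 bases apart over all shared intervals. Among other genes with many intervals, the medians were 161 bases in LNPEP, 160.5 in ZNF609, 144 in CBX6, 70 in LINC00657 and 21 in KIAA0430, so wide spacing is not particular to IGF2BP1. For the 2 IGF2BP1 intervals left at a reciprocal overlap of 50%, the median was 68.5 bases. Both summits fell inside the interval in 3 of 9 cases (33.3%), against 56.7% of all shared intervals. The 9 intervals are not independent, because R1-2, R1-6, R2-4 and R2-5 each underlie more than 1 of them, and a summit can fall in only 1 interval. I2 had summits 7 bases apart and I6 had summits 17 bases apart, and I9 was the remaining case, at 120 bases. At I1 and I3, 0 summits fell inside. I7, with the highest pair of fold enrichments among the 9 IGF2BP1 intervals, 12.7 and 15.2, takes the second of these values from R2-5, whose summit lies 775 bases from that of R1-6, within I6. Thus a fold enrichment listed for an interval can belong to a summit outside it, which applied in at least 1 replicate to 6 of the 9 intervals.

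**Figure D3:**
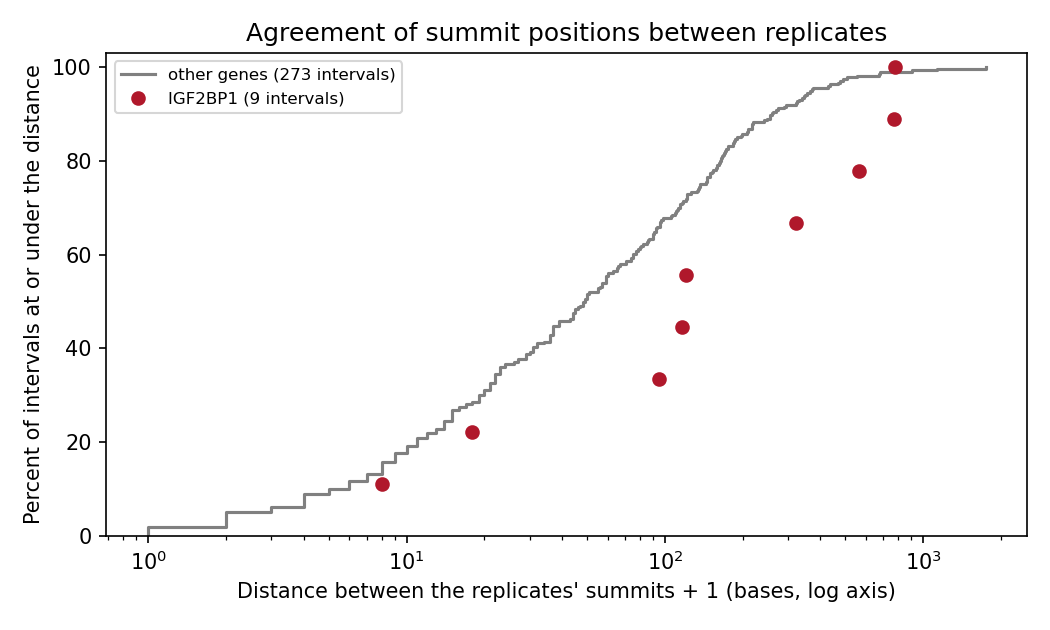
Percent of intervals at or under a given distance between the replicates' summits, on a log axis of the distance plus 1 base, for the 9 intervals of IGF2BP1 (points) and the 273 intervals of other genes (line). The IGF2BP1 points for I2 and I6, at 7 and 17 bases, lie close to the line, and most of the others lie to its right.

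By number of shared intervals, IGF2BP1 ranked 4 of 117 gene symbols, together with LINC00657. LINC00657 is the older symbol of NORAD, a long non-coding RNA with many Pumilio sites. LNPEP, which encodes a membrane aminopeptidase, had 13 intervals. CBX6, a Polycomb protein, had 12, and so did KIAA0430, the older symbol of MARF1 itself, whose coding sequence the cells also carried as a transgene. The count rests on the overlap rule, since 2 IGF2BP1 intervals, I6 and I9, were left when each peak had to share 50% of its length, against 49.6% of all 282 shared intervals, and the rank was then 12. Of 20176 protein-coding genes, 0.57% had a shared interval in the gene body.

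Of the 102 symbols matched to a gene model with a 3'UTR, 13 had a longer one than IGF2BP1, and those 13 had a median of 1 interval, with LNPEP the highest. The 88 matched genes with a shorter 3'UTR also had a median of 1. The median 3'UTR of matched genes was 3597 bases. Per kb of 3'UTR, IGF2BP1 had 1.34 intervals, against a median of 0.497 over the 93 genes with an interval in their longest 3'UTR. On this scale 11 genes stood higher, among them CBX6 at 2.51 and LNPEP at 1.45, so IGF2BP1 ranked 12. Genes enter this comparison only if they have an interval, which leaves out genes with long 3'UTRs and no peak.

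**Figure D4:**
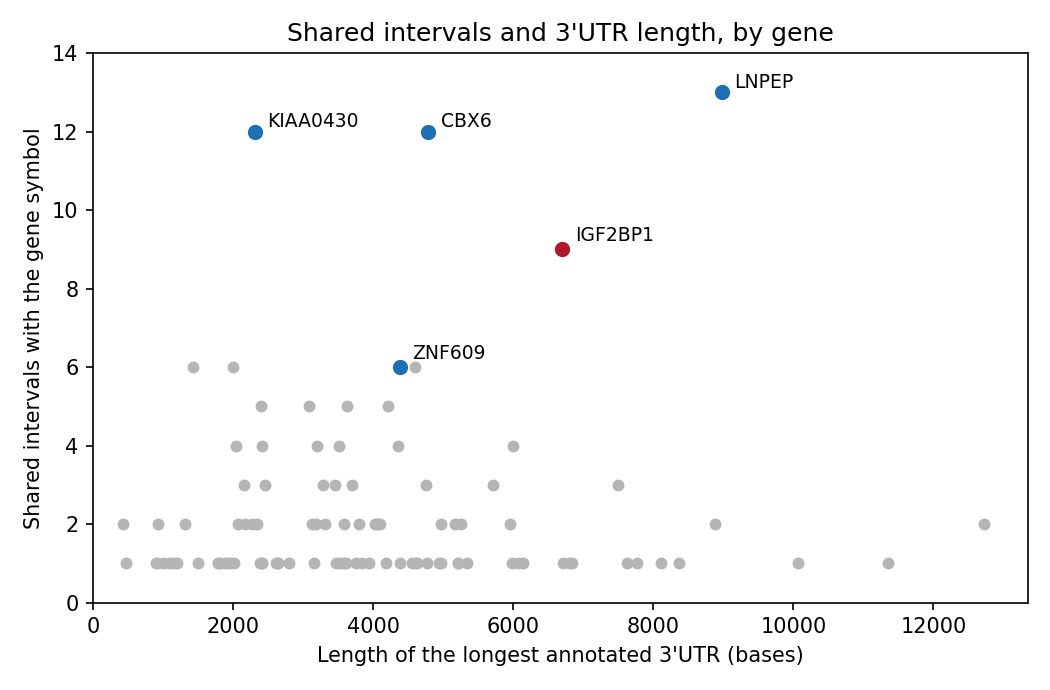
Number of shared intervals against the length of the longest annotated 3'UTR in bases, with a point for each of the 102 matched gene symbols and named genes in colour. IGF2BP1 has 9 intervals in 6701 bases, and genes with longer 3'UTRs have 1 to 3, apart from LNPEP with 13. Counts include intervals outside the 3'UTR, and for KIAA0430 only 1 of the 12 lies in it.

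Likeness to IGF2BP1 was measured over the 13 genes with at least 5 intervals, as the distance in log2 number of intervals and log2 highest fold enrichment of each replicate. LINC00657 was nearest, at 0.28, with 9 intervals and highest fold enrichments of 10.6 and 14.5. By symbol, KIAA0430 came next at 0.52 (12 intervals, 15.5 and 13.9), followed by ZNF609, a zinc finger gene, at 0.59 (6 intervals, 13.1 and 15.4). The measure leaves out position in the gene. In KIAA0430, 1 of the 12 intervals lay in its longest 3'UTR, against all 9 in IGF2BP1 and all 6 in ZNF609. The place of KIAA0430 rests on the symbols, because another 6 intervals in the MARF1 gene body carry the symbol C16orf45. With all 18 its distance was 1.04 and it ranked 10, an alternative chosen after seeing the data. The highest fold enrichments of IGF2BP1 were 12.7 and 15.2. With 3 measures over 2 replicates this order is a description.

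Of the 18 other genes on the lists, 1 had a peak in replicate 1, 2 had a peak in replicate 2, and 1 had a shared interval. Few genes have any peak, since 1.93% of protein-coding genes had one in replicate 1, 1.22% in replicate 2 and 0.57% a shared interval, so counts of 0 are what most genes show. In the IGF2BP family, IGF2BP2 had 1 peak in replicate 2, with a fold enrichment of 10.5, and 0 in replicate 1, while IGF2BP3 had 0 in each. HNRNPU, SYNCRIP, YBX1 and DHX9, which join IGF2BP1 in the complex that stabilises MYC mRNA, had 0 peaks. Among RNAs known to be bound by IGF2BP1, MYC had 5 peaks in replicate 1, 6 in replicate 2 and 5 shared intervals in its gene body. The authors' list gives 6 intervals the symbol MYC, but 1 of them lies on chromosome 9. For ACTB, IGF2, H19, CD44, BTRC and MAPK4, the lists held 0 peaks. The let-7 pathway genes LIN28A, LIN28B, HMGA1, HMGA2 and DICER1 also had 0. The lists do not show expression, so a count of 0 peaks gives no level of binding.

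The let-7 microRNAs share bases 2 to 8, the seed, which pairs with CTACCTC in a target. The 9 mature sequences of this family in RefSeq (GRCh38.p14) have the same seed, and let-7a is shown for the family, with the seed in capitals.
hsa-let-7a-5p: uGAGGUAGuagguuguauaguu
The IGF2BP1 3'UTR holds 4 matches to this seed, printed as 30 bases each with the match in capitals, because let-7 is a known regulator of this mRNA.
let-7 match 1 (chr17:47128426-47128455): gtgcgaagtaaaCTACCTCaaggtatgaag
let-7 match 2 (chr17:47131063-47131092): cagtgctagtaaCTACCTCacagagcccca
let-7 match 3 (chr17:47131717-47131746): taaatggattaaCTACCTCaatccttacag
let-7 match 4 (chr17:47132362-47132391): cttttgttttatCTACCTCttagcaaaaca
Matches 2 and 3 lie in I6, the longest interval, match 4 lies in R1-6 outside any shared interval, and match 1 lies in no peak. The nearest summit was 153 bases from match 2 and 274 bases from match 3. A seed match was found in 0 of 7 windows of 100 bases at the summits of each replicate. At summits of shared peaks in other genes it was in 0 of 216 windows in replicate 1 and 1 of 209 in replicate 2. Among tiles of the same 3'UTR outside every peak, 1 of 21 held a match. A match is a run of letters and not evidence of pairing.

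Other short motifs were searched on the transcribed strand. The core of the m6A consensus, GGACT, was found 7 times in the 3'UTR, 4 times in shared intervals, 3 times in peaks of 1 replicate and 0 times in the 2406 bases outside peaks. At the summits it was in 1 of 7 windows in each replicate, against 4.63% and 6.22% of windows at shared peaks of other genes. The replicate 2 window is that of R2-1, which is not shared, with the match 30 bases from the summit. Thus none of the shared replicate 2 peaks of IGF2BP1 had the core in its summit window. AU-rich ATTTA occurred 11 times, with 1.85 per kb in shared intervals and 1.66 per kb outside peaks. It was in 0 of 7 summit windows in each replicate, against 16.7% and 15.3% of windows of other genes. Windows of the 2 replicates overlap where summits are close, as at I2 and I6, so they are not separate sites. The Pumilio motif TGTANATA occurred 0 times in the 3'UTR. Poly(A) signals were found as AATAAA 5 times and as ATTAAA 4 times. The last AATAAA begins 6673 bases after the stop codon, close to the annotated end, and 1 lies in I9, beginning 24 bases after the summit of R1-7. These counts are low and were not tested.

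Shared intervals were richer in G and C than the rest of the 3'UTR. They had 51.6% GC, against 40.9% outside every peak and 46.5% over the whole 3'UTR. Single intervals ranged from 47.1% to 56.1%, while the 21 tiles of 100 bases outside peaks ranged from 23% to 62%, so the ranges overlap. The first 300 bases, which carry no peak, were at 52% to 62%. Predicted folding was compared in windows of equal length, since the energy per base depends on length. At the 7 replicate 1 summits, 100-base windows had a median of -0.247 kcal/mol per base (range -0.294 to -0.194), and at the 7 replicate 2 summits -0.246 (range -0.382 to -0.161). Tiles outside peaks had a median of -0.171 and a range of -0.401 to -0.055, which covers every summit window. The windows were not matched for GC. Median GC was 50% at the replicate 1 summits, 55% at the replicate 2 summits and 41% in the tiles. Over whole intervals, of 38 to 987 bases, the median was -0.278. In 50-base windows it was -0.118 at the replicate 1 summits and -0.174 at the replicate 2 summits, and tiles of this length were not folded. These predictions are for short pieces of sequence without protein.

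**Figure D5:**
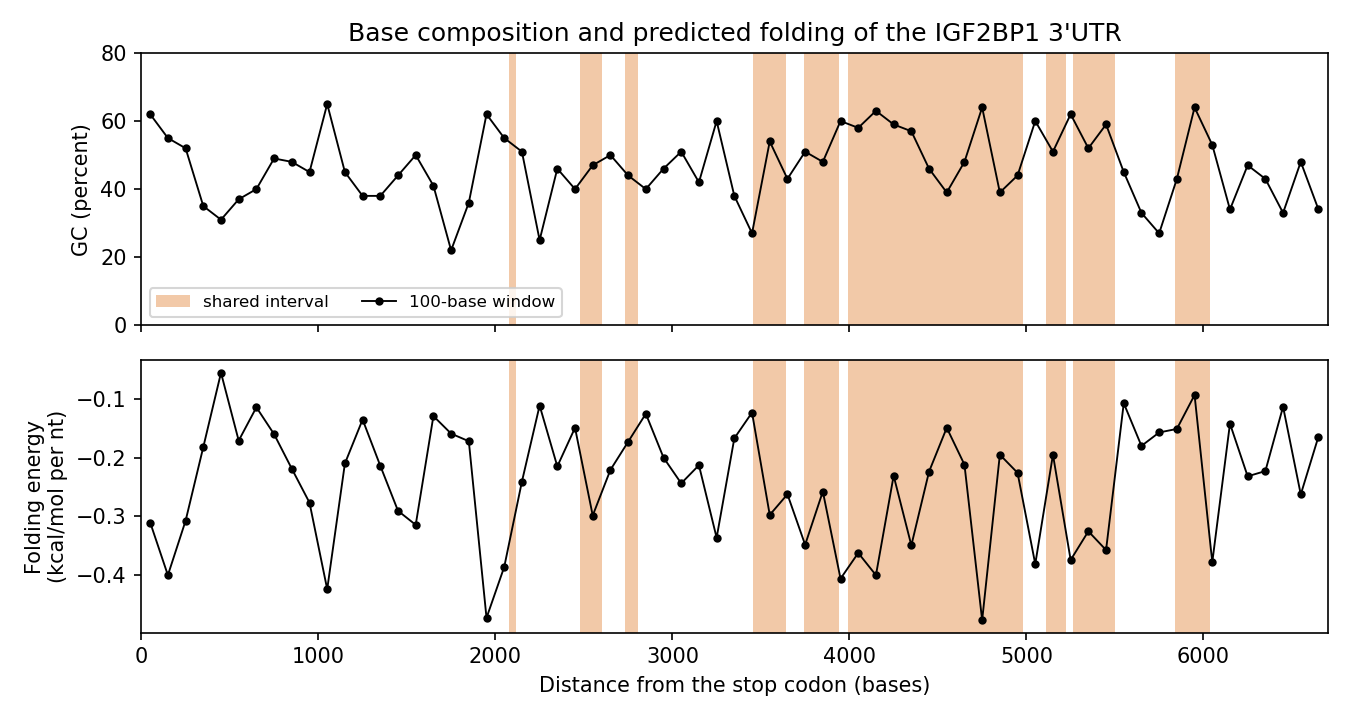
GC percent (top) and predicted folding energy in kcal/mol per base (bottom) in windows of 100 bases along the IGF2BP1 3'UTR, by distance from the stop codon, with shared intervals shaded. GC is lowest, at 22%, in a window without a peak, while the first window, also without a peak, reaches 62%.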

How the data were processed

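The authors trimmed reads with Trimmomatic 0.32, aligned them to hg19 with STAR 2.3.0e, discarded those mapping to more than 10 places, removed secondary alignments (SAMtools 1.9) and duplicates (Picard 2.10.7), and called peaks with MACS2 2.1.1 at an extension of 100 bp and an FDR of 0.05, each F-MARF1ΔNYN replicate against its control. No use of molecular identifiers or strand in the calls is given in the sources used here. For each peak, the authors deposited a score, a linear fold enrichment (ratio), a −log10 p-value and a −log10 q-value. HOMER 4.10 annotated the intersection.

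Intersecting the lists at 1 bp gave all 282 intervals of the authors' list. Summit reads were solved from fold enrichment and p-value (tolerance 0.0002 on −log10 p), a step tested on simulated data. Gene models were GENCODE 44 on GRCh37, each gene by its longest 3'UTR, with 3 symbols matched through RefSeq synonyms. Folding used ViennaRNA 2.7.2, and copies were sought with blastn 2.17.0 at 95% identity and 90% of the interval. Scripts ran in Python 3.11.15 with pandas 2.3.3, scipy 1.17.1, matplotlib 3.10.9 and numpy 2.4.6.

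Members and lists were chosen with earlier results of these data known. Genes named are IGF2BP1, the listed genes, every gene with at least as many intervals, and the 3 genes most like it. A further listed gene is not reported here. All comparisons are descriptions, since the lists hold no values per library.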

Additional observations from a re-analysis of the deposited data

How the results depend on the processing

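No paired analysis was possible because the lists give peaks already called against a control and no values of single libraries. Of 42 alternatives to 12 results, 30 were counted as keeping the result and 12 as moving it. This count does not follow the size of the shift. A replicate 2 median fold enrichment of 14.2 that became 10.5 over all its peaks in the gene was counted as kept. A median summit distance of 120 bases that became 116 was counted as moved. Neither stricter q-values nor a minimum fold enrichment of 4 changed the numbers of peaks and intervals, 7 and 9. Requiring a reciprocal overlap of 50% left 2 of 9 intervals, I6 and I9 (140 of 282 over all genes), moved the rank from 4 to 12 and moved the median distance between summits to 68.5 bases. Pairing each replicate 1 summit with the nearest of replicate 2 gave 116 bases. Per kb of 3'UTR the rank was 12. Counting intervals less than 100 bp apart once gave 1.04 per kb, from 7 intervals. With 1 replicate left out, 7 peaks were counted either way, the rank was 5 to 6, the median distance from the stop codon was 3189 to 3842 bases, the GC content 50.2% to 50.5%, and the folding energy -0.378 to -0.283 kcal/mol per base over whole peaks. At the replicate 1 summit the GC content was 50.4% in 100 bases, and the folding energy -0.118 in 50 bases (-0.174 at the replicate 2 summit). GC content varied little between replicates, so small shifts exceed that spread. Why these values moved was not tested. With 13 to 33 reads at a summit, differences of a few reads between IGF2BP1 peaks are within counting error.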
